A study of Mus musculus with 3 samples.

Results

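The receptors described here are 56 odorant receptor genes on mouse chromosome 19, taken from the authors' table of 1085 named promoter positions on build mm9. A receptor was included when its name stood in 1 row of that table and its position lay on chromosome 19. Of the 65 positions on that chromosome, 4 belonged to unannotated pseudogenes, 4 to the 2 receptors with a pair of rows, and 1 to Olfr1440, and these were left out. The 56 positions run from Olfr1417 at 11909037 to Olfr1505 at 13987942, with 30 on the plus strand and 26 on the minus strand.

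The study mapped the 5′ ends of receptor transcripts in olfactory epithelium, where the olfactory sensory neurons lie. Each sample was a pool of 5 mice, C57/Bl6 adults of 6 to 8 weeks, and no treatment or allele is named in the labels. RLM-RACE ligates an RNA oligonucleotide to decapped mRNA so that only capped 5′ ends are amplified, and reverse transcription here started from degenerate primers in receptor coding sequence. The Stringent array (n = 1) carried a product of nested PCR, and the High Coverage arrays (n = 2) carried products of PCR without nesting. Per the file headers, High Coverage 1 was hybridised with a female input and High Coverage 2 with a male one, so array and sex cannot be told apart. The array tiles receptor loci, and markers of other cell types were not analysed here. With 1 array against 2 there is no test between the groups, and Stringent has no replicate.

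Odorant receptors are G protein-coupled receptors, and a mature olfactory neuron expresses essentially a single receptor gene. The coding region usually lies in 1 exon, with 1 or more noncoding exons upstream of it, so the promoter can lie several kilobases before the coding start. Because the primers anneal in the coding exon and the product runs back to the cap, signal can appear both in the first exon at the promoter and in the coding exon downstream of it. Promoters of this family are known for their AT-rich sequence, for Olf/EBF sites and for homeodomain sites with the core TAAT.

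RefSeq windows of build GRCm38.p6, with 250 bases before and 50 after the annotated start, were held for 51 of the 56 receptors. In 44 of them the letters ATG stood at the annotated start itself, so that these windows lie at a coding start and not at a mapped promoter. Of the 7 others, 4 belong to receptors annotated over more than 2 kb, and their 250 bases upstream of the annotated start are shown as the only candidate promoter sequence held here. Capitals mark TAAT on either strand, a motif added after the data were seen. The arrays use mm9, so whether the mapped position lies in these windows was not tested. Olfr1426 is on the minus strand at chr19:12091848-12092097, Olfr1437 on the minus strand at chr19:12325067-12325316, Olfr1443 on the plus strand at chr19:12677916-12678165 and Olfr1477 on the plus strand at chr19:13500296-13500545, all on GRCm38.p6.
Olfr1426: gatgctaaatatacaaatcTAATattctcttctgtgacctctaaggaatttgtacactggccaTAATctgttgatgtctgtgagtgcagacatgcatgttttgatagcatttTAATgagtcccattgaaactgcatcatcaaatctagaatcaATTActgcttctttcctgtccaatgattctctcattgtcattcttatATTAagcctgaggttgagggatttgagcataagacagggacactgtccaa
Olfr1437: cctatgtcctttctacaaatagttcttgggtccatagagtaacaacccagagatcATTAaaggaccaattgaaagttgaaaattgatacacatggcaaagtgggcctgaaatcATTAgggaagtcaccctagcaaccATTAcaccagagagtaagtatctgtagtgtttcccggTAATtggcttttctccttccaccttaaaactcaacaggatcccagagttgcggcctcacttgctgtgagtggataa
Olfr1443: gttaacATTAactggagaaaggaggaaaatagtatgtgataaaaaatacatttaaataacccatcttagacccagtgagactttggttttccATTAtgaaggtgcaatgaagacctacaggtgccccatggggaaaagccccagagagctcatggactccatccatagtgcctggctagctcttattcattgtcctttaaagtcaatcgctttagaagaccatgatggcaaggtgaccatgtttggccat
Olfr1477: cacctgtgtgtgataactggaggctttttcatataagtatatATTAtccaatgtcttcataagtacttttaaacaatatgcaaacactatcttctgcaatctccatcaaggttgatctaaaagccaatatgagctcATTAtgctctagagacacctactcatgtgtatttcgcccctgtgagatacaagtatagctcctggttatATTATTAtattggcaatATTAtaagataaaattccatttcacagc
These 4 were chosen by their annotation, and the arrays separate them. Olfr1437 had a called region at its mapped position on Stringent and High Coverage 2, Olfr1477 had one on High Coverage 1, and Olfr1426 and Olfr1443 had none. TAAT occurred 5 times in the Olfr1426 window, 4 times in Olfr1437, 2 times in Olfr1443 and 5 times in Olfr1477, counting both strands. A match is a description of the letters and not a site. At least 1 TAAT was held by 6 of the 7 windows without ATG at the start, against 54.9% of all 32851 RefSeq windows and 91.6% of the 262 receptor windows without ATG at the start. TATAAA was in 0 of the 7, against 12.4% of all windows and 31.3% of those receptor windows. TAATTA, which contains TAAT, was in 1 (Olfr1496), or 14.3%, against 4.84% and 17.6%. The Olf/EBF core motif was in 0, against 0.779% and 0.382%. The 7 windows had a median AT share of 62.8%, against 47.6% over all windows and 63.8% over the receptor windows.

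A called region lay within 100 bp of the named position at 40 of the 56 receptors on Stringent, or 71.4% (exact Clopper-Pearson 95% interval 57.8 to 82.7), where 61.7% of all 1085 named positions had one. On High Coverage 1 it was 13 of 56, or 23.2% (12.98 to 36.4), against 36.3% of all positions. On High Coverage 2 it was 21 of 56, or 37.5% (24.9 to 51.5), against 43.6%. The chromosome 19 receptors thus stood above the share of all positions on Stringent and below it on both High Coverage arrays, and the interval reached the share of all positions on each array. The High Coverage counts moved with the window, to 7 and 11 at the position itself and to 26 and 32 with 500 bp on each side, while Stringent had 38 and 46. The intervals cover counting error over promoters only, and neighbouring promoters are not independent. Windows 1 kb upstream, tiled for 30 of the receptors, held a region at 0 of 30 on Stringent (upper bound 11.6%) and at 1 of 30, or 3.33%, on each High Coverage array. Over the 611 named positions tiled there the shares were 1.15%, 9.17% and 8.02%. Regions were called by the authors for each array at MAT scores of 2.52 (Stringent), 2.53 (High Coverage 1) and 2.99 (High Coverage 2). The MAT score compares probes with the expectation from their sequence and is relative to the array's own probes, so scores are not on 1 scale across arrays, and the percentile among all scored probes of an array is used to set arrays side by side. The median highest score in the window stood at the 95.4 percentile (Stringent), 87.7 (first High Coverage array) and 90.9 (the other). Over all scored positions the medians were 94.4, 91.3 and 92.4.

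**Figure D1:**
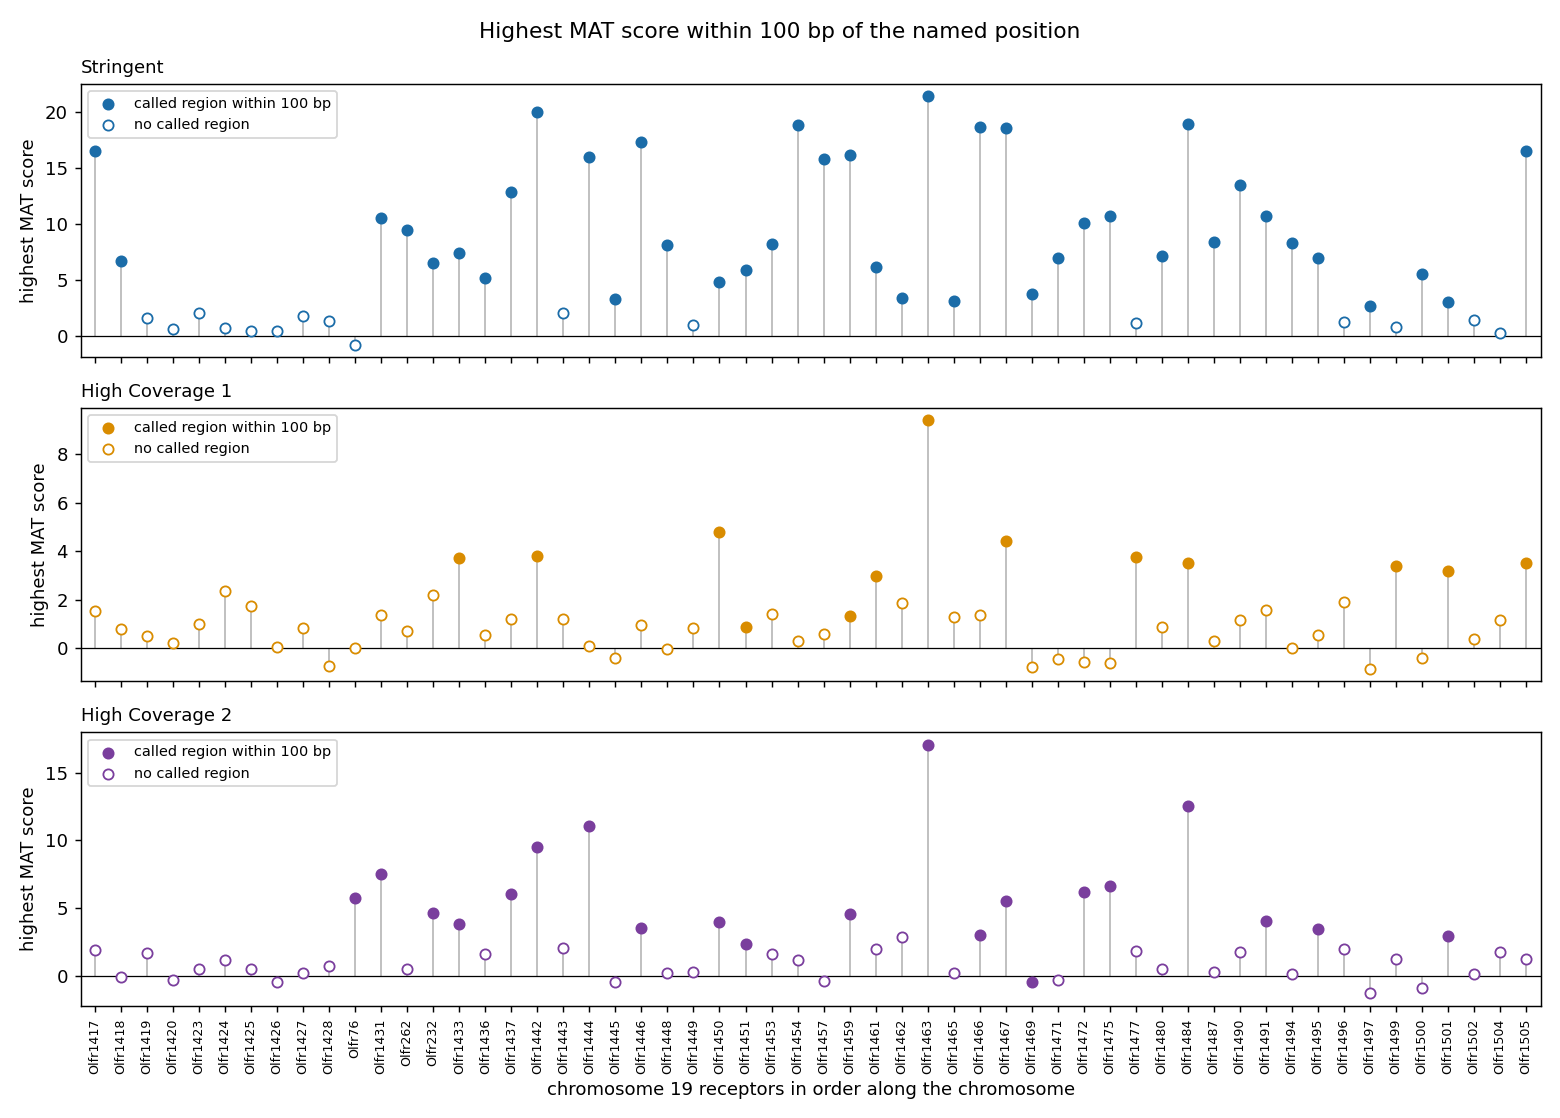
Highest MAT score (vertical axis, a separate scale for each array) within 100 bp of the named position of each of the 56 receptors, in order along chromosome 19; filled points have a called region. The 8 neighbours from Olfr1419 to Olfr1428 have open points on all 3 arrays, and Olfr1463 is the highest point on each.

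All 3 arrays had a region at 9 of the receptors, or 16.1%, where 17.3% of all named positions had one. They were Olfr1433, Olfr1442, Olfr1450, Olfr1451, Olfr1459, Olfr1463, Olfr1467, Olfr1484 and Olfr1501. The count rose to 20 when High Coverage 1 was left out and to 11 without High Coverage 2, where a region on 2 arrays is enough. It was 2 at the position itself, 15 with 250 bp on each side and 5 with region lists of equal length. Scores and percentiles for the 3 arrays are given in the order Stringent, High Coverage 1, High Coverage 2. Olfr1463, at 13305729 on the plus strand, had the highest score of the 56 on every array, with 21.4, 9.39 and 17.1. It is one of the MOR202 receptors, and stood at the 99.9, 99.1 and 99.7 percentiles. Olfr1442, the first receptor after the widest gap among the 56, scored 20.0, 3.82 and 9.54. Olfr1467 scored 18.5, 4.42 and 5.49. Olfr1484 scored 18.9, 3.53 and 12.5. These 4 receptors had the highest lowest percentile over the arrays, 96.99 or above. Olfr1450 scored 4.78, 4.79 and 3.94. Olfr1433 scored 7.36, 3.71 and 3.85. Olfr1501 scored 2.97, 3.17 and 2.95. Olfr1450 and Olfr1501 had scores of like size on all 3 arrays, although the scales differ. Olfr1459 scored 16.1, 1.33 and 4.56, and Olfr1451 scored 5.89, 0.885 and 2.37. For Olfr1459 on High Coverage 1, Olfr1501 on High Coverage 2 and Olfr1451 on both, the score in the window was under the authors' threshold and the region only reached into it. At Olfr1451 the High Coverage 1 region began 97 bp downstream. Its High Coverage 2 region began at -178 bp, was 124 bp long and ended before the position, so the 3 regions there do not share a start.

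Stringent and exactly 1 High Coverage array had a region at 13 receptors, or 23.2%, against 16.0% of all positions. In 11 of the 13 the second array was High Coverage 2, and in 2, Olfr1461 and Olfr1505, it was High Coverage 1. High Coverage 2 also had a region at more of all named positions, 43.6% against 36.3% on High Coverage 1. The same split over all named positions was not analysed here. Olfr1444 scored 16.0, 0.104 and 11.03. Olfr1466 scored 18.6, 1.38 and 3.01. Olfr1446 scored 17.2, 0.979 and 3.51. In these 3 receptors the Stringent score was high and 1 of the 2 High Coverage arrays had a region. Olfr1505, the last receptor along the chromosome, had the opposite split, with 16.5, 3.52 and 1.25. Its High Coverage 1 region began at -150 bp and was 174 bp long, so most of it lay before the position. Olfr1461 scored 6.09, 2.98 and 1.99. Olfr232 scored 6.51, 2.22 and 4.61, and was among the 8 receptors whose lowest percentile over the arrays was highest, although it had only 8 probes in its window. The others with Stringent and High Coverage 2 regions were Olfr1431, Olfr1437, Olfr1469, Olfr1472, Olfr1475, Olfr1491 and Olfr1495.

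Only Stringent had a region at 18 receptors, or 32.1%, against 28.3% of all positions. Their Stringent scores ran from 2.68 at Olfr1497 to 18.8 at Olfr1454, with a median of 7.59. Olfr1454 scored 0.285 on High Coverage 1 and 1.19 on High Coverage 2. Olfr1417, the first receptor along the chromosome, scored 16.5 on Stringent, 1.55 and 1.90, and Olfr1457 scored 15.8, 0.589 and -0.396. Strong signal in the nested product thus occurred with values under the authors' threshold on both other arrays. The rest of the 18 were Olfr1418, Olfr262, Olfr1436, Olfr1445, Olfr1448, Olfr1453, Olfr1462, Olfr1465, Olfr1471, Olfr1480, Olfr1487, Olfr1490, Olfr1494 and Olfr1500.

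A region on High Coverage without one on Stringent was found at 3 receptors, or 5.36%, where 19.4% of all named positions had this pattern. Olfr76 scored -0.794, 0.0368 and 5.72, and was the only receptor of the 56 with a Stringent score below 0. Olfr1477 scored 1.14, 3.77 and 1.85, and Olfr1499 scored 0.785, 3.38 and 1.25. Each of the 3 rested on a single High Coverage array.

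No array had a region at 13 receptors, or 23.2%, against 18.9% of all named positions. The count was 9 with 250 bp on each side of the position and 4 with 500 bp. They were Olfr1419, Olfr1420, Olfr1423, Olfr1424, Olfr1425, Olfr1426, Olfr1427, Olfr1428, Olfr1443, Olfr1449, Olfr1496, Olfr1502 and Olfr1504. The first 8 of these are consecutive among the 56 receptors, from 11949661 to 12190703. Their Stringent scores ran from 0.374 at Olfr1426 to 2.02 at Olfr1423. On High Coverage 1 the 8 lay between -0.704 at Olfr1428 and 2.35 at Olfr1424, and on High Coverage 2 between -0.434 at Olfr1426 and 1.65 at Olfr1419. Of the 5 outside that run, Olfr1443 had the highest Stringent score, with 1.99, 1.20 and 2.03 on the 3 arrays, and Olfr1504 had the lowest of the 13, 0.213.

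The low receptors were gathered at the low-coordinate end of the positions. Of the 11 receptors up to 12.2 Mb, 2 had a Stringent region (Olfr1417 and Olfr1418), or 18.2%, and of the 45 beyond it 38 had one, or 84.4%. The boundary is that of the first of 7 stretches of 300 kb. On High Coverage 1 the first stretch had a region at 0 of 11 and on High Coverage 2 at 1 of 11, at Olfr76. In the second stretch all 6 receptors had a Stringent region, in the third 1 of 2, in the fourth 6 of 7, in the fifth 8 of 8, in the sixth 9 of 10 and in the seventh 8 of 12. From Olfr1450 to Olfr1475, 16 neighbours in a row had a Stringent region. The array was not empty over the first stretch: it held 16778 scored probes and 32 Stringent regions, or 1.91 regions per 1000 probes, and the other stretches held 0.889 to 3.16. High Coverage 1 had 45 regions there and High Coverage 2 57. The median score of the Stringent regions there was 4.97, against 4.88 in the second stretch and 8.235 to 17.7 in the other stretches. Whether the low share belongs to the named positions or to the stretch was not tested. Neighbouring positions were a median of 23529 bp apart. The closest were Olfr1428 and Olfr76, at 6913 bp, and the widest gap was 345396 bp, between Olfr1437 and Olfr1442.

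Position and sequence group went together. Matched by symbol, the reference gene table gives 54 of the 56 receptors a MOR name, whose number groups receptors by similarity of sequence. Olfr232 and Olfr1433 were not matched by symbol, so their groups were not read and the group counts leave them out. MOR239, with 6 members from Olfr1423 to Olfr1428, all on the minus strand, had a region at 0 of 6 on each array. With 250 bp on each side 2 of them had a region on 1 or more arrays, and with 500 bp 4 did. MOR202, the largest group with 27 members from Olfr1442 to Olfr1487, had one at 24, 9 and 13 of the 27 on Stringent, High Coverage 1 and High Coverage 2, and it held 7 of the 9 receptors with a region on all 3 arrays. Its 3 members without a Stringent region were Olfr1443, Olfr1449 and Olfr1477. MOR214, with 4 members matched by symbol, had a Stringent region at all 4 and one on High Coverage 1 at 0. MOR266 lies at both ends, with 4 members from Olfr1417 to Olfr1420 and 4 from Olfr1490 to Olfr1495, and had a Stringent region at 6 of 8. Its 2 members without one, Olfr1419 and Olfr1420, are in the proximal run, and the 4 distal members scored from 6.96 to 13.4 on Stringent. MOR212 had 3 of 4 on Stringent and MOR211 1 of 3, Olfr1505. The groups were compared after their values were seen. MOR266, at both ends, and MOR211 and MOR212, which are interleaved from Olfr1497 to Olfr1505, are the groups not set apart by position alone.

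**Figure D2:**
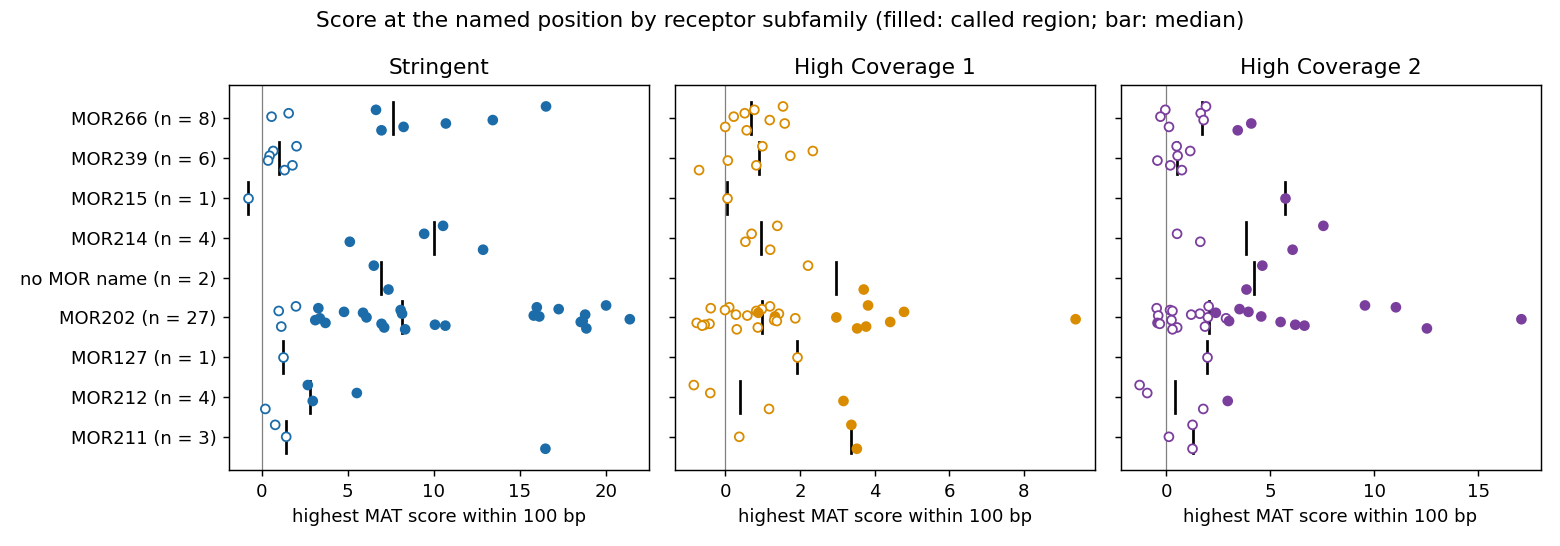
Highest MAT score within 100 bp of the position (horizontal axis) by MOR sequence group, ordered by first position along the chromosome; filled points have a called region and the bar is the group's median. All 6 MOR239 points are open on the 3 arrays, and 24 of 27 MOR202 points are filled on Stringent.

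At the positions the Stringent signal rose. In bins of 50 bp, the receptors' median score was -0.95 in the bin that ends 50 bp before the position. The median was -0.51 in the next bin, up to the position, with an upper quartile of 0.44. It was 2.86 in the bin that begins at the position and 5.15 in the following bin, where all named positions had 2.15 and 3.27. The upper quartile stayed above 10 in the bins from 50 to 300 bp downstream. On High Coverage 1 the median stayed below 0 in every bin from 500 bp upstream to 1000 bp downstream, and on High Coverage 2 its highest value was 0.42, from 150 to 200 bp downstream. In the 2 bins after the position High Coverage 1 had -0.59 and -0.25, where all named positions had 0.14 and 0.20, and High Coverage 2 had -0.24 and 0.07, where all had 0.43 and 0.61. The receptors thus lay above all named positions there on Stringent and below them on both High Coverage arrays. Averaged over 150 bp, the score was higher after the position than before it at 51 of 53 receptors on Stringent, against 94.5% of all positions, and the 2 exceptions were Olfr1425 and Olfr1504. It did so at 28 of 53 on High Coverage 1, against 70.3%, and at 36 of 53 on High Coverage 2, against 74.6%. For the 40 Stringent regions, the median 5′ edge was at -40 bp relative to the position, with quartiles of -53.25 and -30 bp. Edges on High Coverage 1 had a median of 0 bp over 13 regions and quartiles of -55 and 25 bp. The sources used here do not say how positions were set, so a rise at them is not independent evidence.

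**Figure D3:**
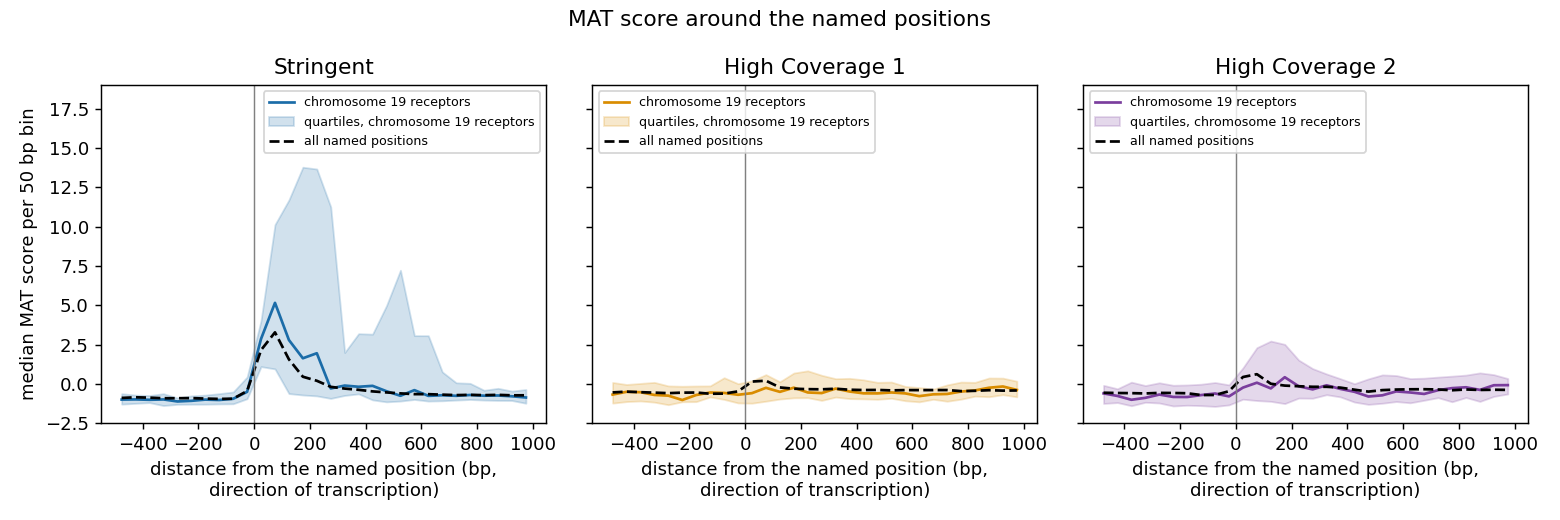
Median MAT score (vertical axis) in bins of 50 bp around the named position (horizontal axis, in bp along the direction of transcription), with the quartiles of the chromosome 19 receptors shaded and all named positions dashed. The Stringent median rises to 5.15 between 50 and 100 bp downstream, and that of High Coverage 1 stays below 0.

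Regions downstream of the positions were nearly universal. Called regions starting 200 bp to 10 kb downstream, and before the next named position, were searched for. They were found for 53 of the 56 receptors on Stringent, or 94.6%, where 88.2% of all named positions had one. Both High Coverage arrays were near this, with 53, or 94.6% (against 96.2% of all positions), and 55, or 98.2% (against 93.2%). The same search upstream found one for 25, 28 and 29 receptors, or 44.6%, 50% and 51.8%. Over all positions the shares were 29.9%, 52.4% and 50.4%. Upstream a region can belong to a neighbour. Downstream it can too, where 2 receptors point at each other. Olfr1471 and Olfr1472 do so, 12641 bp apart, and their searches overlap. Among the 13 receptors without a region at the position, 11 had a downstream region on all 3 arrays, Olfr1496 on 2 and Olfr1449 on 1. This is near the share over all 56, of which 50 had a downstream region on all 3 arrays. The highest-scoring downstream region began at a median of 3156 bp downstream on Stringent. The medians for High Coverage 1 and High Coverage 2 were 3802 and 3421 bp. For the 50 receptors with one on all 3 arrays, the 3 starts lay within 500 bp of each other at 26. Olfr1459 had the same start, 2845 bp, on all 3 arrays, with region scores of 20.4, 27.8 and 18.1. Olfr1504, which had no region at its position, also had 1 start on all 3, 1633 bp, with 19.7, 10.3 and 12.9. Olfr1463 had 2900, 2916 and 2906 bp, and Olfr1501 6046, 6057 and 6037 bp. In these 4 receptors the starts differed by at most 20 bp between arrays. Olfr1418 shows the other case, with 4893, 5088 and 8380 bp. No mm9 annotation was used, so which of these regions lie in coding exons was not analysed here.

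The MOR239 receptors were among the lowest in the downstream regions in 1 of the 2 kinds of product. The score of their highest downstream Stringent region was 4.24 at Olfr1423, 4.01 at Olfr1424, 4.68 at Olfr1425, 5.93 at Olfr1426, 4.87 at Olfr1427 and 7.49 at Olfr1428. These 6 lay between ranks 1 and 9 of 53, counted from the lowest, and the median over all other receptors was 17.7. On High Coverage 1 the same 6 receptors had 9.43 to 14.6, between ranks 29 and 43 of 53, and on High Coverage 2 9.41 to 21.5, between ranks 23 and 54 of 55. Both High Coverage arrays thus had MOR239 in the middle or upper part of their lists, where Stringent had it at the bottom. Olfr76, their neighbour, was alike on Stringent, with 5.92, and on High Coverage 2, with 17.4. On High Coverage 1 it had 6.18, rank 19 of 53 and below the 6. Olfr1499 was low on all 3, with 5.86, 3.56 and 3.12. Olfr1462, of MOR202, was below Olfr1428 on Stringent, with 6.05, rank 8 of 53, and had 3.74 and 6.89 on the High Coverage arrays. The other 7 receptors without a region at the position did not share the low Stringent scores: 6 had a downstream Stringent region, scored 17.3 to 19.7. Region scores are the authors' and are ranked only within an array, and the difference between products has no replicate on the Stringent side.

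**Figure D4:**
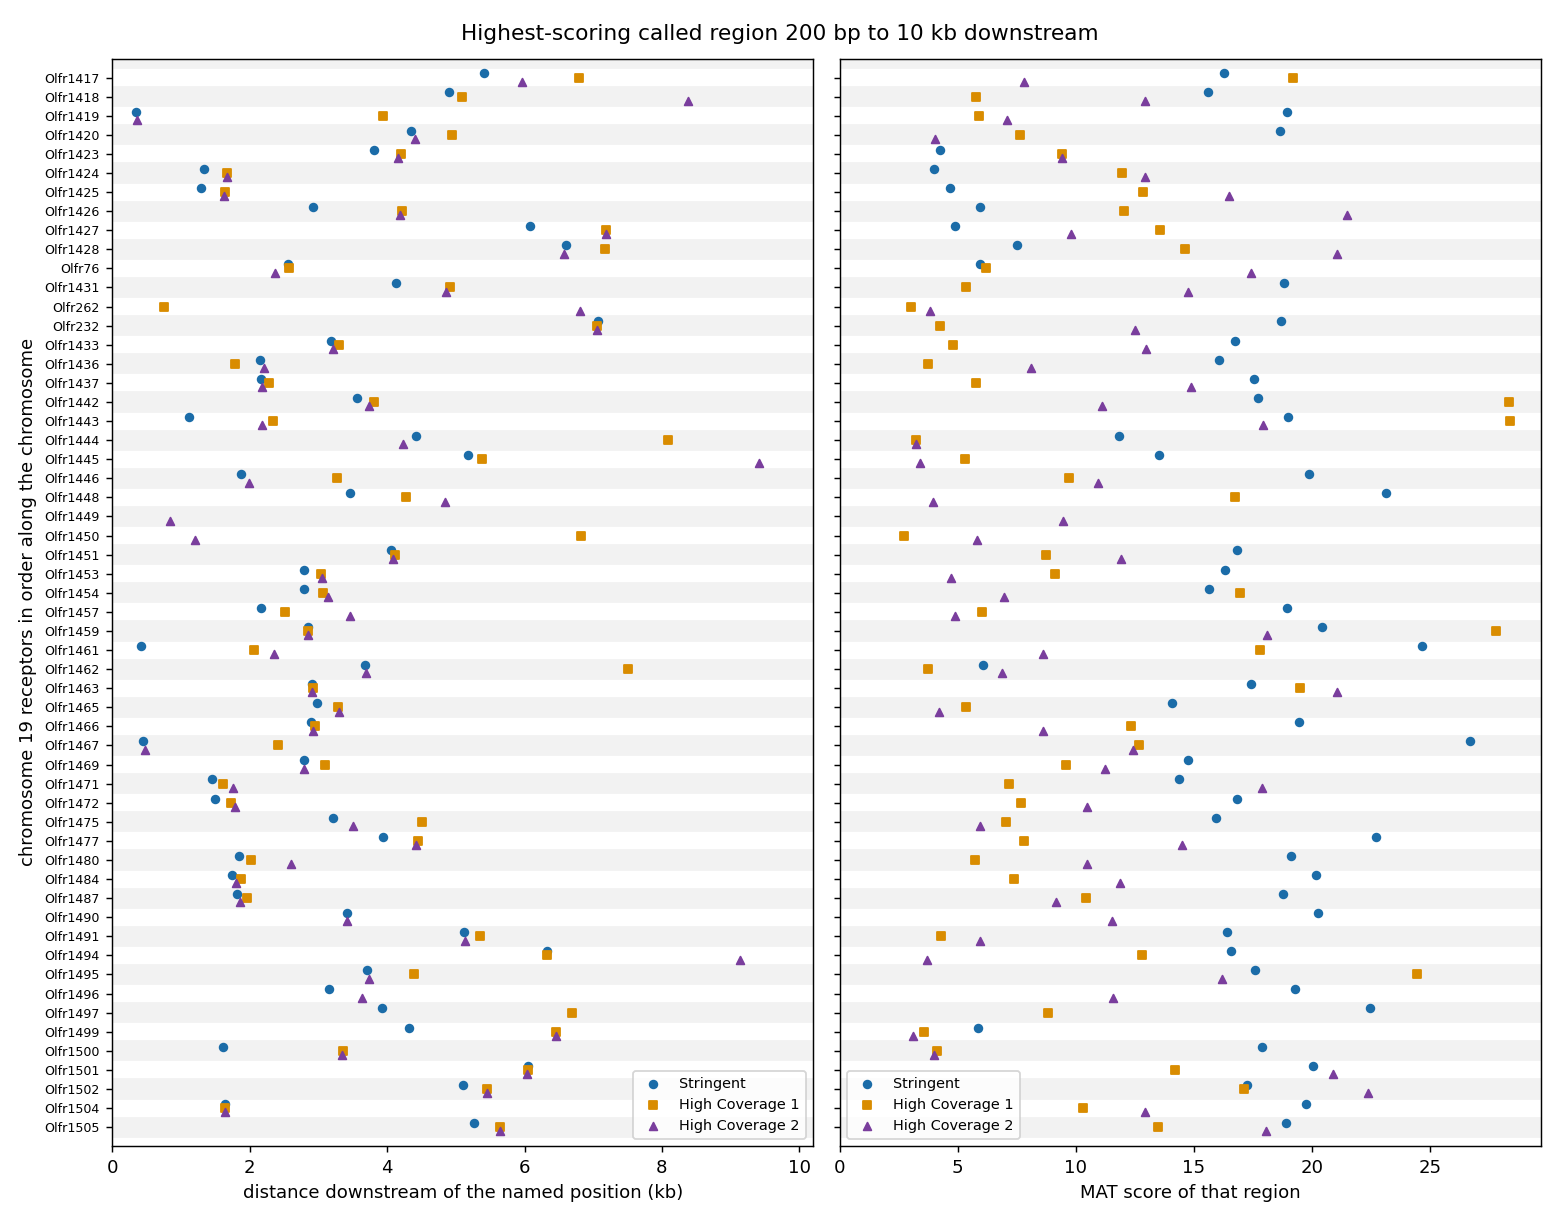
For each receptor, in order along the chromosome, the distance (left, kb) and the authors' MAT score (right, not on 1 scale across arrays) of the highest-scoring called region 200 bp to 10 kb downstream of the named position. From Olfr1423 to Olfr1428 the Stringent scores lie between 4.01 and 7.49, among the 9 lowest of 53 on that array.

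Set receptor by receptor, the Stringent percentile exceeded the mean of the High Coverage percentiles by a median of 6.94 points, against 4.03 over all scored positions. The median was 4.04 with High Coverage 1 left out and 8.10 with High Coverage 2 left out. Its size moved with the measure, to 29.8 points with the mean score in the window, 18.96 with 50 bp on each side and 3.08 with 250 bp. By more than 34.3 points, the 95th percentile of the absolute difference between the High Coverage arrays, 5 receptors stood higher on Stringent, or 8.93%, where 8.80% of all positions did. These were Olfr1497 at the 93.5 percentile on Stringent against 32.3 and 18.4, Olfr1500 at 95.02 against 53.9 and 32.4, Olfr1469 at 94.1 against 36.1 and 54.2, Olfr1445 at 93.9 against 54.4 and 52.5, and Olfr1471 at 95.6 against 52.9 and 58.5. At Olfr1469 a High Coverage 2 region with a score of 26.29 began 83 bp downstream and only reached into the window, and it was the highest-scoring region of that array in the stretches searched, while the Stringent region scored 3.70. Olfr1497 and Olfr1500 are both MOR212 receptors on the minus strand, with Olfr1499 between them at 90.2 on Stringent against 96.8 and 88.0. Only Olfr76 stood lower by that limit, at 46.1 against 70.5 and 97.3, or 1.79% of the receptors, where 1.20% of all positions did. The next lowest were Olfr1504, Olfr1477, Olfr1450 and Olfr1499, at differences of -4.14 to -2.22 points. Each share is close to that of all named positions.

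Between the High Coverage arrays the median absolute difference was 6.90 points, against 4.33 over all scored positions. High Coverage 2 stood above High Coverage 1 by more than the same limit at 3 receptors, or 5.36%, where 3.34% of all positions did, and the reverse occurred at 0 receptors against 1.67%. Olfr1475 was at the 43.4 percentile on High Coverage 1 and 97.7 on High Coverage 2, and Olfr1472 at 46.8 and 97.5. These 2 are neighbours among the 56, both on the minus strand and both of MOR202, 27408 bp apart, and their Stringent percentiles were 96.8 and 96.6. Olfr1428, at 39.3 and 82.9, had no region on either array. The smallest differences were at Olfr1417, with 91.9 and 91.8, at Olfr1467, with 97.7 and 97.2, and at Olfr1463, with 99.1 and 99.7. Across the 56 positions, which share arrays and probe design, the percentiles of the 2 High Coverage arrays had Pearson's r = 0.604 and Spearman's rho = 0.522.

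**Figure D5:**
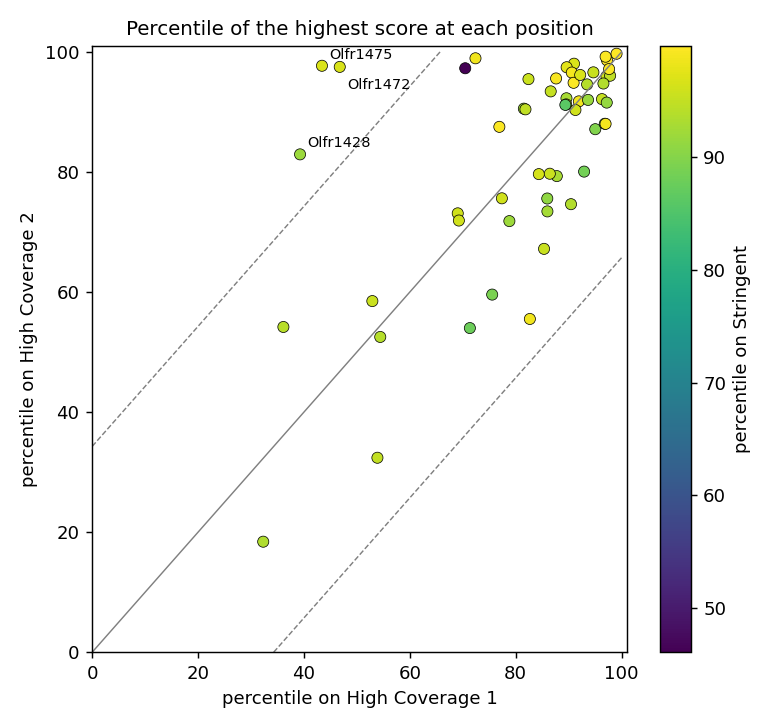
Percentile of the highest score within 100 bp on High Coverage 1 (horizontal) and High Coverage 2 (vertical) for the 56 receptors, coloured by the Stringent percentile; dashed lines are 34.3 points from equality. Olfr1475, Olfr1472 and Olfr1428 lie beyond the upper line and 0 receptors lie beyond the lower one.

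The list of all receptor genes on chromosome 19 in the reference table, of another build and used for names and order only, held 63 protein-coding genes and 28 pseudogenes. A named position was given for 59 of the 63 protein-coding receptors and, by name, for 0 of the 28 pseudogenes, while the 4 positions of unannotated pseudogenes carry no name to match. The 4 protein-coding receptors without one were Olfr1432, Olfr1441, Olfr1447 and Olfr1458. All 53 pairs of neighbours that could be matched had the same order in both.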

How the data were processed

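For each of 3 tiling arrays, the deposited files hold probe positions with their MAT score, and called regions. Per the file headers, the authors used MAT without a control, set to bandwidth 50, gaps up to 30 and 5 or more probes, on a natural log scale. There is no scaling between arrays. Build mm9 is named in the submitters' processing notes. Region scores are the authors' own.

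Of 2313448 probes, those scored 0 on all 3 arrays were read as having no window score, which left 2188086. Chromosome 19 has 104240 of the deposited probes. Each position was widened by 100 bp on each side, and the highest score was turned into a percentile among the array's scored probes. Overlap was at least 1 bp. Intervals are exact Clopper-Pearson at 95%. No test was run, since arrays are the only units. The number of arrays limits the precision.

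Receptors named with values were the 8 with the highest lowest percentile, the 5 highest and 5 lowest differences between products, and the 3 largest and 3 smallest High Coverage differences. The first, last and closest receptors and all with regions on 3 arrays were also named with values. All with a region on none were named, some without a score at the position. Others were named after their values were seen. The receptors and lists were chosen with earlier results of these data known. Protein identity was not analysed here. Region overlap, score percentiles and the comparison of scores after and before the position were tested on simulated data, and the other steps were not. Tools were matplotlib 3.10.9, pandas 2.3.3 and numpy 2.4.6, with scipy 1.17.1 for intervals, under Python 3.11.15.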

Additional observations from a re-analysis of the deposited data

How the results depend on the processing

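The alternatives were other windows, overlaps, region lists, scores and scales, and leaving out either High Coverage array. Of 72 alternative values 29 moved. Counts, shares and percentiles could not change direction by how they were labelled. Only the median difference between products could, and it stayed above 0 under every alternative. Stringent counts held between 38 and 46 of 56 under every window, overlap and region list tried. With 250 bp on each side High Coverage 1 had a region at 21 receptors, all 3 arrays at 15 and MOR239 at 2. With 500 bp High Coverage 1 had 26, High Coverage 2 32, all 3 arrays 17, no array 4 and MOR239 4. At the position itself High Coverage 1 had 7, High Coverage 2 11 and all 3 arrays 2. With all lists shortened to their top 3608 regions High Coverage 1 had 8 and all 3 arrays 5. Leaving out 1 High Coverage array gave 11 to 20 receptors with a region on all arrays kept, 14 to 15 with none, and a median difference between products of 4.04 to 8.10 points. The mean score in the window gave median percentiles of 92.7, 51.7 and 63.3 on Stringent, High Coverage 1 and High Coverage 2, and a difference of 29.8 points. With 50 bp the High Coverage medians were 76.8 and 83.1 and the difference 18.96 points, with 250 bp 92.6, 93.1 and 3.08, and with 500 bp 94.9, 95.5 and 3.18. In stretches of 150 kb the lowest Stringent share was 0%. The cause of these shifts was not tested. The MOR239 alternatives were added after the data were seen. No paired analysis was possible because Stringent has 1 array and no replicate number in the labels. The highest score in the window was below 0 at 1 receptor for Stringent and at 10 and 9 for the High Coverage arrays, and the part of signal over background in the calls was not tested.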
